A study of Mus musculus with 2 samples.

Results

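The genes described here are those that flank Sdr9c7 on mouse chromosome 10, as read by the array probes whose mm9 position starts between 126848150 and 127848209, a window that reaches 500 kb to either side of the Sdr9c7 probe. Probes named for short-chain dehydrogenases (names beginning with Sdr, Rdh, Dhrs or Hsd17b) were left out, which removed 8 probes, Sdr9c7 among them. This left 50 probes of 39417 non-control probes on the array, under 37 gene names of 31084, 15 on the lower-coordinate side of Sdr9c7 and 22 on the higher-coordinate side. Position chose the members, and no measured value did. The study compared skin of newborn Sdr9c7-/- knockout mice (postnatal day 0) with skin of age-matched wild type mice of the same C57BL/6J strain background, taken from the back; the design text speaks of epidermis where the tissue label says skin. Each genotype was 1 array, hybridised with pooled RNA of 5 animals. With no replicate, no test was possible and every difference compares 2 pools. The sources used here do not say which part of Sdr9c7 was deleted, or how.

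The product of Sdr9c7 is a dehydrogenase that oxidises acylceramides, lipids of the skin barrier, in the upper epidermis. The gene sits within a run of related dehydrogenase genes, and outside that run the chromosome is packed with genes of unrelated function. These include the transcription factors Stat6 and Stat2 of cytokine signalling, the endocytic receptor gene Lrp1, enzymes of mitochondrial metabolism, and factors of DNA replication. Neighbours of a deleted gene can share regulatory sequence with it, and their transcripts are commonly examined when a knockout is characterised.

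Among these neighbours, most transcripts read nearly alike in both genotypes. Of 33 gene names that were measured, meaning that at least 1 probe was well above background on both arrays, 32 lay within 1.5-fold. The exception was Il23a, which encodes the p19 subunit of the cytokine interleukin-23 and was 2.28-fold higher in the knockout, at a dim signal and not after another background correction. The next highest were BC089597, a retinol dehydrogenase-like gene and the closest member to Sdr9c7 on its lower side, and Nab2, a corepressor of the EGR transcription factors. No gene was 1.5-fold lower, and the lowest was Coq10a, a coenzyme Q-binding protein of mitochondria.

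Signals below are relative to the array's 75th percentile, so that 1 equals that percentile, and differences are knockout minus wild type on the log2 scale. The scanner file calls a spot well above background when its signal exceeds 13 times the SD of the background. By that flag 76.8% of probes were well above background on the knockout array and 74.9% on the wild type array, with 0 saturated spots. Technical spread was read from probes printed at several places: the pooled SD of the log2 difference between spots of a probe was 0.10 over 320 probes and 0.17 over the dimmest 80. Between different probes of the same gene name the pooled SD was 0.25 over 5162 names. These spreads cover spots and probes, not animals, and having 1 array per genotype limits all precision. Keratinocyte markers were all measured, 7 of 7, with a summed signal of 362 in the knockout and 369 in the wild type; 0 of them was 2-fold apart.

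The deleted gene checks the labels. Sdr9c7 had a relative signal of 0.0479 in the knockout and 0.324 in the wild type, a log2 difference of −2.76. The probe was lower in the library labelled knockout and remained well above background there. Its spot lay in a band of rows where dim spots scattered more between the arrays, so it has no value with those bands left out.

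All probes of the 3 genes with the highest differences are shown first, because each of these readings rests on 1 or 2 oligonucleotides of 60 bases. All positions are mm9, and sequences are as in the scanner files, 5′ to 3′. An annotation of that build was not used, so the probes are not placed in exons or UTRs.
BC089597, chr10:127314088-127314147, plus strand: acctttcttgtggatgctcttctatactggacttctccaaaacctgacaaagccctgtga
BC089597, chr10:127314281-127314340, plus strand: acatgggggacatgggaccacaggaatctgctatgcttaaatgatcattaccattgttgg
Nab2, chr10:127098009-127098068, minus strand: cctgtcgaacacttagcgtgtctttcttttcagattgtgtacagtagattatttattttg
Nab2, chr10:127101413-127101472, minus strand: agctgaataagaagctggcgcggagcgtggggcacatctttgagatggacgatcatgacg
Il23a, chr10:127733766-127733825, minus strand: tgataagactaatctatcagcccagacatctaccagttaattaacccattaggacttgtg

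The placement of a further gene name differs between sources. Snrpd2, which encodes a core Sm protein of the spliceosome, had 2 probes with chromosome 10 positions, but a RefSeq gene table of GRCm38.p6 places the gene on another chromosome. That table lists a pseudogene, Gm10120, between Hsd17b6 and Prim1, where these probes fall. The oligonucleotides are offset by 6 bases and share 54 bases, in capitals here, all 54 of them identical.
Snrpd2, chr10:127449204-127449263, plus strand: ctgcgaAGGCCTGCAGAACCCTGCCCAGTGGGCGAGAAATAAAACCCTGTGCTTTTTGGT
Snrpd2, chr10:127449210-127449269, plus strand: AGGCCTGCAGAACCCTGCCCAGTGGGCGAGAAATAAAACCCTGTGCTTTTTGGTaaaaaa
The first probe read 19.8 in the knockout and 19.95 in the wild type, and the second 21.7 in the knockout and 21.3 in the wild type. The log2 differences were −0.01 and 0.03, so both arrays read alike here. Whether these probes read the pseudogene or the gene elsewhere was not tested.

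Along the locus, 46 of the 50 probes were measured, and the other 4 were not well above background on either array. Of the 46, 1 was at least 2-fold higher in the knockout, against 0.512% of all 29096 measured probes, and 0 were at least 2-fold lower, against 1.43% of all. At 1.5-fold, 3 probes were higher (2.53% of all) and 0 were lower (6.05% of all). The 3 were the Il23a probe, 1 of 2 BC089597 probes and 1 of 2 Nab2 probes. By gene name, 1 of 33 was at least 2-fold higher, against 0.528% of 22745 measured names, and 0 were at least 2-fold lower, against 1.36%. At 1.5-fold the same name was higher (2.36% of all names) and 0 were lower (6.06% of all names). At 2-fold a single probe cannot show whether the members' share differs from the background, because 1 probe of 46 is the smallest count above 0. At 1.5-fold the 3 higher probes were 6.52% of the measured members, beside the 2.53% of all. Past 1.5-fold in either direction were 6.52% of members and 8.58% of all. The differences between these shares were not tested, and members were not matched to all probes for brightness. Probes at least 1.5-fold lower made up 13.3% of the dimmest 10% of measured probes and 1.92% of the brightest 10%.

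**Figure D1:**
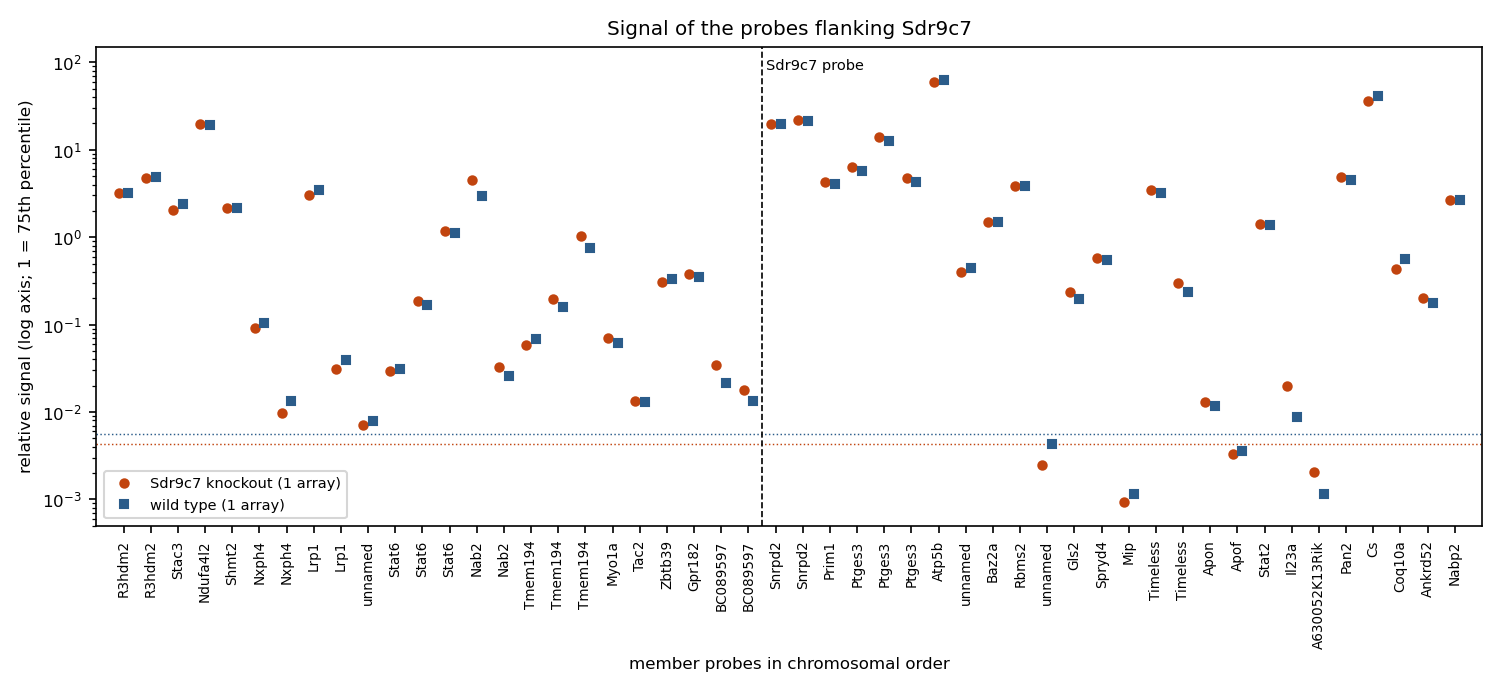
Relative signal (log axis) of the 50 probes flanking Sdr9c7 in chromosomal order, knockout as circles and wild type as squares, 1 array each; dotted lines mark the lowest signal taken as well above background on each array. Most pairs lie close together over a range from 0.000942 to 63.3, with visible gaps at Nab2, BC089597 and Il23a. Gaps also show at A630052K13Rik (1.78-fold higher in the knockout) and at 1 unnamed probe (1.74-fold lower). Neither of these was well above background on either array.

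The member probes had a median log2 difference of 0.04, with quartiles at −0.08 and 0.17, beside −0.03 for all measured probes, with quartiles at −0.20 and 0.12. The 24 measured probes on the lower side of Sdr9c7 had a median of 0.02 and the 22 on the higher side 0.07. In the next 1 Mb below the window the median was 0.00 over 35 measured probes, and in the next 1 Mb above it 0.05 over 37. The rest of chromosome 10 had a median of −0.04 over 1221 measured probes. The differences between these medians were not tested. Values above 0 made up 28 of the 46 members (60.9%), 54.3% and 54.1% of the adjoining stretches below and above, and 44.2% of all measured probes. The difference also varied with brightness, and the stretches were not matched for it. The median was −0.13 in the dimmest 10% of measured probes, −0.0008 in the second brightest 10% and −0.05 in the brightest 10%. The part of brightness in these medians and shares was not tested.

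**Figure D2:**
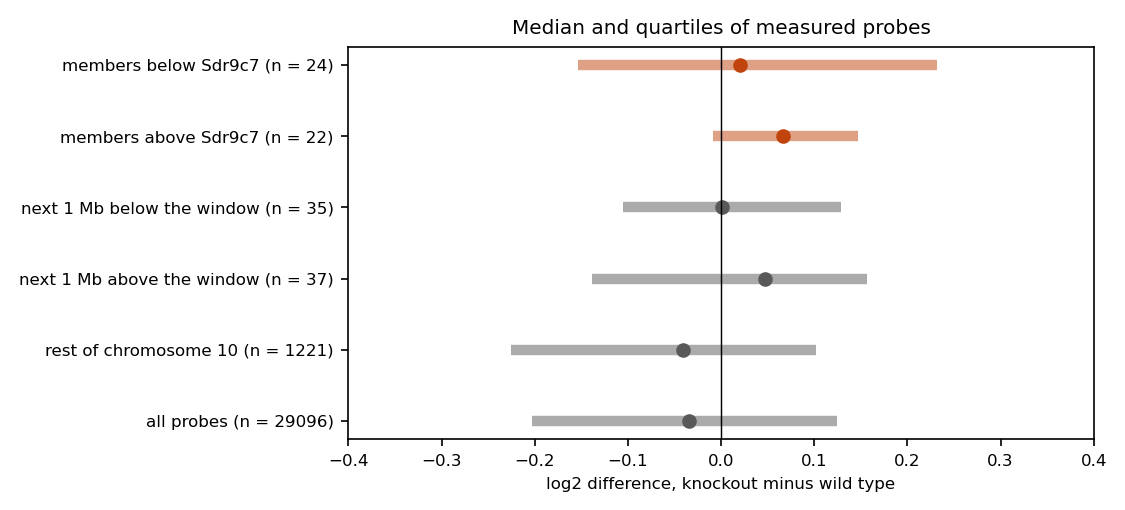
Median (point) and quartiles (bar) of the log2 difference, knockout minus wild type, for measured probes of each stretch, with the number of probes in brackets. The bars of all stretches overlap and every median lies between −0.05 and 0.07.

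With the genes left out by name, of which Rdh7 and Hsd17b6 lie nearer, and with Snrpd2 set aside, the nearest members were BC089597 on the lower side, 33.8 kb away, and Prim1 on the higher side, 119 kb away. BC089597, now called Rdh16f2, escapes the exclusion of dehydrogenase names through its older name. Its first probe read 0.0345 in the knockout and 0.0214 in the wild type. Its second probe, printed at 10 places on the array, read from 0.0131 to 0.0241 with a median of 0.0179 in the knockout, and from 0.0107 to 0.0205 with a median of 0.0129 in the wild type. The knockout was the higher array at 8 of the 10 places, although the ranges overlapped. The log2 difference was 0.69 for the first probe and 0.43 ± 0.40 (SD over 10 spots) for the second, with an SE of 0.13 that covers spot error only. Of those 10 spots 3 lay in the bands of scattering rows, as did the first probe, and the other 7 spots averaged 0.40. Among measured probes as dim as the first, 5.46% were at least 1.5-fold higher, and among those as dim as the second 5.05%. After normexp, a model-based background correction run with an offset of 50 added to both arrays, the mean of both probes was 0.11 in place of 0.56.

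A second gene with 10 spots, Apon, which encodes an apolipoprotein known from liver, gives a measure of what a dim probe returns. Its spots read from 0.0116 to 0.0150 in the knockout and from 0.00874 to 0.0141 in the wild type. The log2 difference was 0.15 ± 0.21 (SD over 10 spots), with 8 of 10 spots above 0. With normexp correction the value was −0.07, so no direction is given for this gene.

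**Figure D3:**
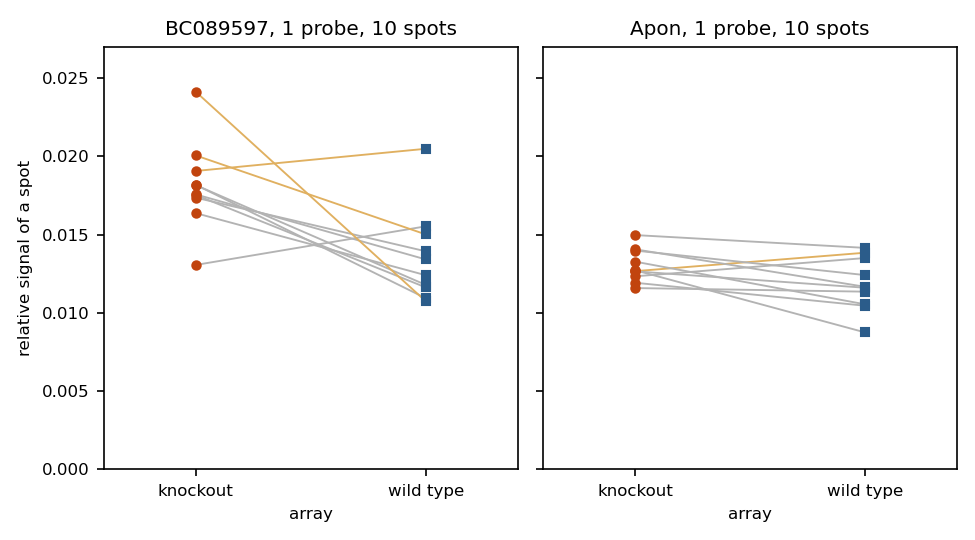
Relative signal at each of the 10 places where 1 BC089597 probe (left) and the Apon probe (right) were printed, knockout against wild type, with lines that join the same place on both arrays; ochre lines mark places in the bands of scattering rows. For BC089597 the knockout median is 0.0179 and the wild type median 0.0129, and at 2 places the line runs the other way.

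Among signalling genes, 8 were members and 8 were measured, with a median of 0.05, and 6 lay above 0. Il23a encodes the subunit that pairs with the p40 chain to form interleukin-23, which sustains T cells that make interleukin-17. Its single probe read 0.0199 in the knockout and 0.00874 in the wild type, a log2 difference of 1.19. The raw spot means were 81.9 in the knockout and 56.9 in the wild type, over local backgrounds of 36 in the knockout and 35 in the wild type. Its relative signal was above the lowest taken as well above background, which was 0.00427 in the knockout and 0.00563 in the wild type. Among the dimmest 10% of measured probes, where it falls, those at least 2-fold higher made up 1.03% and those at least 2-fold lower 3.26%. With normexp correction the log2 difference was 0.29, which ends its call. The spot lay outside the bands and outside a block of the slide where many spots read at least 2-fold higher on the knockout array, and 98 measured spots around it had a median of −0.06.

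Stat2, next to Il23a with 3872 bases between their probes, is a transcription factor of the response to type I interferon. It read 1.41 in the knockout and 1.39 in the wild type, a difference of 0.02. Stat2 thus read alike in both genotypes where Il23a did not, but the Il23a value rests on a dim probe and was 0.29 with normexp. The 2 probes also differ in brightness. The SD of the difference was 0.46 among measured probes as dim as Il23a and 0.26 among those as bright as Stat2. Of 12 genes listed for the interleukin-23 pathway 8 were measured, 2 above 0 and 6 below, with a median of −0.24 and 0 at least 2-fold apart. The list also holds Il12rb2 and Il12a, which belong to interleukin-12, and Il12rb2 was the lowest at −0.33. Not measured were Il12b, which encodes the p40 partner chain, the receptor gene Il23r, Il12a and Il17a.

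Stat6 is the transcription factor through which interleukin-4 and interleukin-13 act, and had 3 probes. They read 0.0298, 0.188 and 1.19 in the knockout, against 0.0309, 0.166 and 1.105 in the wild type. The differences of −0.05, 0.18 and 0.11 averaged 0.08, within the spread between probes of a gene, and the average was −0.0003 after normexp. Of 16 genes of the STAT6 pathway 15 were measured, 4 above 0 and 11 below, with a median of −0.10 and 0 at least 2-fold apart. The kinase gene Tyk2 is in both of these pathway lists.

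Nab2, which restrains EGR transcription factors and is itself induced by growth signals, had 2 probes of very different brightness. The bright one read 4.56 in the knockout and 2.96 in the wild type, and the dim one 0.0326 in the knockout and 0.0258 in the wild type. Both were higher in the knockout, by 0.62 and 0.34 on the log2 scale. The mean was 0.48, and under the alternatives it ranged from 0.34 to 0.62. The spread between probes of a gene leaves out any difference between the pools that these probes share. It therefore cannot say how far such a mean may lie from 0. Among measured probes of like brightness (relative signal 2.79 to 7.14), 0.791% were at least 1.5-fold higher. Its spot lay outside the block and bands, and 108 spots around it had a median of −0.05. The last probes of Nab2 and Stat6 face each other from opposite strands with 260 bases between them, and their differences were 0.62 and 0.11.

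The remaining signalling genes lay closer to 0 than Il23a and Nab2 did. Lrp1, a large endocytic receptor, read 3.01 in the knockout and 3.45 in the wild type with one probe, and 0.0314 in the knockout and 0.0398 in the wild type with the other. The differences were −0.20 and −0.34. Nxph4, a secreted neurexophilin, gave −0.20 and −0.44 with its 2 probes, the second of them dim at 0.00982 in the knockout and 0.0133 in the wild type. These 2 genes were below 0 in every alternative tried. Gpr182, an atypical chemokine receptor of endothelium, read 0.379 in the knockout and 0.346 in the wild type (0.13). Tac2, the precursor of neurokinin B, was dim at 0.0133 in the knockout and 0.0131 in the wild type.

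**Figure D4:**
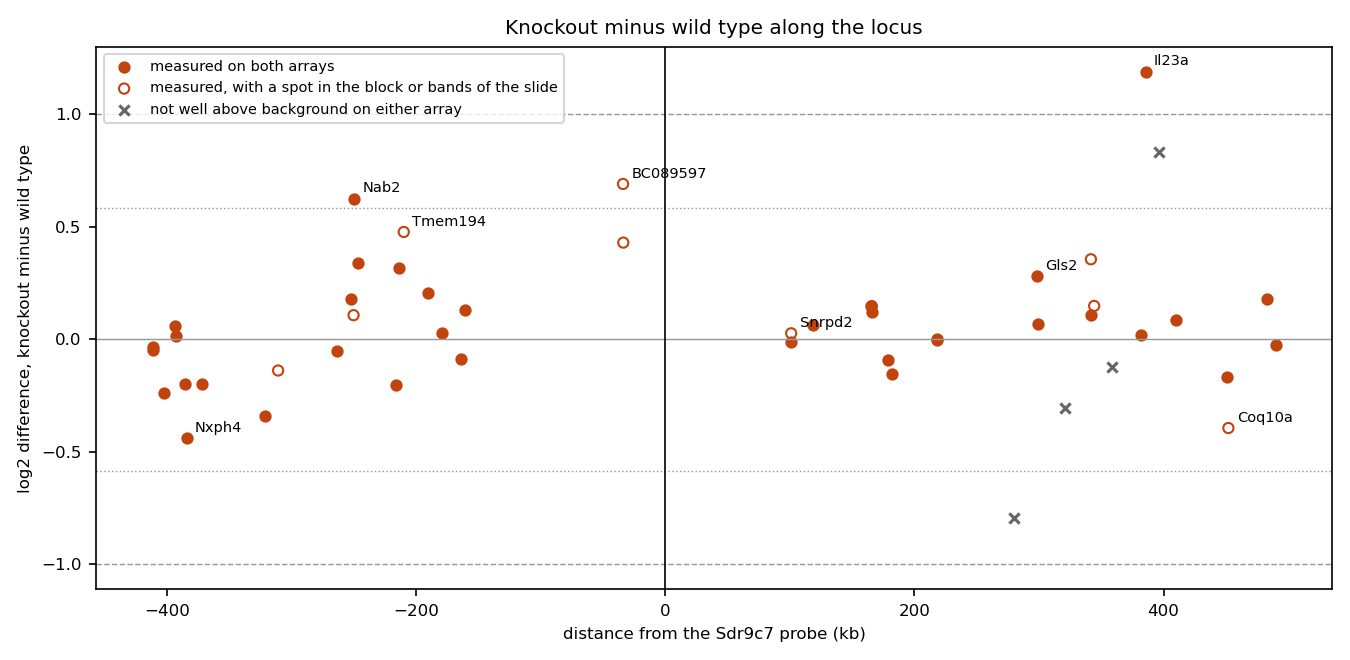
Log2 difference, knockout minus wild type, of each of the 50 probes against its distance from the Sdr9c7 probe in kb (negative values are the lower-coordinate side); dashed lines mark 2-fold and dotted lines 1.5-fold, open circles have a spot in the block or bands of the slide, and crosses were not well above background. Il23a at 1.19 is the sole measured probe past 2-fold, and the other measured probes lie between −0.44 and 0.69.

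Enzymes and carriers of metabolism were 7 members, all measured, with 4 above 0, a median of 0.02 and 0 at least 2-fold apart. Coq10a read 0.430 in the knockout and 0.565 in the wild type, a difference of −0.39. Its spot lay in a band, and the gene faces Cs, which encodes citrate synthase of the tricarboxylic acid cycle, with 868 bases between their probes. Cs read 36.4 in the knockout and 40.8 in the wild type, a difference of −0.17. Gls2, a mitochondrial glutaminase, read 0.236 in the knockout and 0.194 in the wild type (0.28), and Spryd4, a SPRY domain protein whose probe faces it from 220 bases away, read 0.579 in the knockout and 0.552 in the wild type (0.07). Shmt2, the mitochondrial serine hydroxymethyltransferase, and Ndufa4l2, a hypoxia-induced mitochondrial protein, differed by 0.02 and 0.06.

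Atp5b, the catalytic beta subunit of ATP synthase, read 59.4 in the knockout and 63.3 in the wild type. Its difference of −0.09 changed sign without scaling (0.05) and after quantile normalization. Of 12 other ATP synthase subunits, all measured, 1 was above 0 and 11 below, with a median of −0.12 and 0 at least 2-fold apart. Most skeletal muscle markers were also lower: 14 of 14 were measured, 12 below 0 and 5 at least 2-fold lower, with a median of −0.91. Single muscle markers read from 0.0732 to 51.8 in the knockout and from 0.124 to 86.7 in the wild type, summing to 132 in the knockout and 229 in the wild type, and none of them was at background. Adipocyte markers were lower too: 9 of 9 were measured, 9 below 0 and 2 at least 2-fold lower, with a median of −0.53. Single adipocyte markers read from 0.0138 to 35.5 in the knockout and from 0.0189 to 44.9 in the wild type, summing to 56.6 in the knockout and 85.75 in the wild type. The medians of fibroblast markers (6 of 6 measured) and leukocyte markers (6 of 7) were −0.03 and −0.01. The part of muscle or fat in the values of Atp5b, Cs and Coq10a was not tested.

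Stac3, which links the membrane to calcium release in skeletal muscle, read 2.03 in the knockout and 2.40 in the wild type, a difference of −0.24. It was below 0 in every alternative tried, beside the muscle median of −0.91, and in bulk skin fewer muscle fibres and less RNA per fibre cannot be told apart. The part of muscle content in this value was not tested. Myo1a, a myosin of the intestinal brush border, read 0.0701 in the knockout and 0.0609 in the wild type, a difference of 0.20.

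Factors of the nucleus and of RNA numbered 10, all measured, with 6 above 0, a median of 0.03 and 0 at least 2-fold apart. Prim1, the catalytic subunit of DNA primase and the nearest member on the higher side apart from Snrpd2, read 4.24 in the knockout and 4.06 in the wild type, a difference of 0.06. Timeless, which protects replication forks, gave 0.11 with its bright probe (3.45 in the knockout and 3.20 in the wild type) and 0.36 with its dimmer one, whose spot lay in a band. Tmem194, an inner nuclear membrane protein now called Nemp1, had the widest range between probes, with −0.20, 0.32 and 0.48. The highest of these read 1.04 in the knockout and 0.745 in the wild type and was the single member probe inside that block. With block and bands left out the gene's mean was 0.06 in place of 0.20.

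Baz2a, a subunit of a complex that silences ribosomal RNA genes, and the RNA-binding protein gene Rbms2 have probes that face each other across 489 bases and read alike in both genotypes. Baz2a read 1.48 on both arrays and Rbms2 3.85 in the knockout and 3.86 in the wild type. Pan2, a deadenylase that shortens poly(A) tails, read 4.83 in the knockout and 4.56 in the wild type, a difference of 0.09. Ankrd52, a regulatory subunit of protein phosphatase 6, and Nabp2, a single-stranded DNA-binding protein of DNA repair, differed by 0.18 and −0.03. Zbtb39, a zinc finger protein, and R3hdm2, which has an R3H domain, stood at −0.09 and −0.04. The chaperone cofactor Ptges3, also known as a prostaglandin E synthase, had 3 probes that read alike, with 0.15, 0.15 and 0.12.

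In all, 8 pairs of neighbouring member genes had probes that face each other from opposite strands, and the differences of a pair lay nearest for Rbms2 minus Baz2a, at −0.0031, and farthest apart for Il23a minus Stat2, at 1.17. Nab2 minus Stat6 was next at 0.52. In the other 6 pairs the partners were within 0.23 of each other, under the spread of 0.25 between probes of a gene.

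The 4 names with no measured probe were Mip, an aquaporin of the lens, Apof, an apolipoprotein known from liver, A630052K13Rik and 1 probe with no gene name. The processed signals of Mip were 1.81 in the knockout and 2.03 in the wild type, which is at the level of the background. Of the members, 2 further probes without a current gene name were measured, and differed by −0.14 and −0.15. Of 42 protein-coding RefSeq genes between R3hdm2 and Nabp2, 32 had a member probe, 7 were left out by name and 3 had no probe with a position in the window. The 32 stood in the same order in both builds.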

How the data were processed

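RNA from skin of newborn mice was labelled with Cy3 and hybridised to 1-colour Agilent arrays, 1 for each genotype. The input was 200 ng of pooled RNA per the labels. The deposited scanner files hold the intensity of each of 44397 spots after background subtraction and spatial detrending within the array by Agilent Feature Extraction 11.5.1.1, per the file headers and the submitters' processing notes. The deposited series matrix holds a linear ratio, found here to equal that intensity over a single constant on each array, 2080 on the knockout and 1906 on the wild type. Its column medians were 0.0840 for the knockout and 0.0855 for the wild type. It is not centred by gene, and how the constants arose is unknown. The files' other values, deposited by the authors, are flags per spot.

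Intensities were taken to log2, 192 outlier spots were left out, spots of a probe were averaged, and each array's 75th percentile over 39417 probes (1923 for the knockout, 1747 for the wild type) was subtracted. A gene's value is the mean over its measured probes. Of the member probes, 45 were named through their accession and 1 through its symbol with a RefSeq table (GRCm38.p6), and 4 kept the files' names. The block and the bands of the slide were found from the spots, as windows with many spots at least 2-fold higher on the knockout array and runs of rows with wide scatter of dim spots.

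Alternatives used limma 3.58.1 in R 4.3.3; the rest ran in Python 3.11.15. The calculation was tested on simulated data with planted changes well past 2-fold and with less noise than dim spots had. That test checks the scaling and the calls, not readings of dim probes such as Il23a. The members and lists were chosen with earlier results of these data known. A list of STAT2 partners and targets is not reported here. Named genes are all members by position, with values for the nearest, highest, lowest, brightest and several-probe genes and for the role lists.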

Additional observations from a re-analysis of the deposited data

How the results depend on the processing

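With 1 array per genotype no test was run, and a value was taken as moved when it shifted by more than the pooled SD between spots of a probe. No probe of the window was at least 2-fold lower under any of the settings tried. The count of probes at least 2-fold higher was 0 after normexp background correction and 0 in a window of 250 kb, which does not reach Il23a, and with a threshold of 1.5-fold it was 3. It was 1 under the other alternatives. The median over member probes was 0.18 without scaling, a setting that put the median over all measured probes at 0.10 in place of −0.03. Sdr9c7 was at −2.05 after normexp and −2.62 without scaling. Of 247 recomputed values for 31 named genes, 48 moved and 199 did not. The moves include all 31 genes without scaling, a setting that shifts every probe by the same amount, larger than that SD. The sign was the same under every alternative for 21 of these genes, 16 above 0 and 5 below, and changed under at least 1 for 10, all of them within 0.15 of 0. The counts of 16 and 5 are not a measure of direction, because most alternatives moved values upward. The median over all measured probes rose from −0.03 to 0.006 after quantile normalization, and fell to −0.06 after normexp. For a gene with 1 measured probe, taking the brightest probe repeats the main value. Dim probes, such as those of Il23a, BC089597 and Apon, limit what can be said, and normexp moved these the most. It was run with an offset of 50 added to both arrays, which draws the log2 difference of dim probes toward 0. Before scaling, Il23a had intensities of only 38.3 in the knockout and 15.3 in the wild type. How much of each move came from the offset was not tested. No paired analysis was possible because each genotype has 1 array.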

Other observations

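The 3 protein-coding genes of the segment with no probe positioned in the window were read by probes placed elsewhere or nowhere. Naca, the alpha chain of the nascent polypeptide-associated complex, read 38.4 in the knockout and 40.2 in the wild type, a difference of −0.07, with a probe that the files place on chromosome 12. Cnpy2, a protein of the endoplasmic reticulum, read 5.48 in the knockout and 5.75 in the wild type, a difference of −0.07. Its probe, like that of Slc39a5, has no position in the files. The zinc transporter gene Slc39a5 was not well above background on either array.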
